A study of Mus musculus with 6 samples.

Results

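The genes described here are the inhibitor of differentiation genes Id1, Id2, Id3 and Id4, the bone morphogenetic protein (BMP) genes Bmp4 and Bmp6, and the BMP antagonist genes Grem1 and Chrd. They were taken by exact gene symbol from the array's annotation, and only probe sets that name 1 gene were used. All 8 genes were found, with 12 probe sets among the 22690 on the array. They were chosen by the measured difference between the genotypes of this study, in which the ID genes and Bmp6 were higher and Grem1 and Chrd lower. Their genotype differences are therefore a description, with no p-value given for them.

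Whole pituitary glands of male mice, 8 to 12 weeks old and of strain C57BL/6J, were either labelled Bmal1-/- (replicates 4 to 6) or wild type (replicates 1 to 3). Bmal1-/- denotes loss of both copies of Arntl, the gene of the clock transcription factor BMAL1, and the labels name no tissue-specific driver. Both genotypes lived under 12-hour light and 12-hour dark phases and were killed at zeitgeber time 12, when the lights went off. Each of the 6 Affymetrix 3' expression arrays carried RNA pooled from 3 glands of 1 genotype, and values are linear MAS5 intensities with n = 3 arrays per genotype.

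BMPs are secreted ligands of the TGF-beta superfamily. They bind paired type I and type II receptor kinases, which phosphorylate SMAD1, SMAD5 and SMAD9. These then enter the nucleus with SMAD4, and the ID genes are among their best known direct targets. Outside the cell, antagonists such as noggin, chordin and gremlin bind the ligands and keep them from the receptors. In the pituitary, BMP4 is needed to form the gland's primordium, Rathke's pouch, and in the adult gland BMPs act on lactotrophs, corticotrophs and gonadotrophs. ID proteins have a helix-loop-helix domain but no DNA-binding basic region, so they hold E proteins and other basic helix-loop-helix (bHLH) factors in pairs that cannot bind DNA.

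The glands carried their hormone transcripts, and clock genes differed strongly between the labels. Gh, growth hormone, averaged 16017 ± 662 on arrays labelled Bmal1-/- and 19355 ± 1119 in wild type (SD). Nr1d1 and Dbp, which BMAL1 drives directly, averaged 5.17 ± 3.61 and 68.6 ± 11.1 on arrays labelled Bmal1-/-, against 65.3 ± 6.43 and 440 ± 59.1 in wild type. The probe set for Arntl itself read higher on arrays labelled Bmal1-/-, at 114 ± 12.8 against 43.3 ± 7.29 in wild type. The sources do not say whether it lies inside the deleted stretch, and a probe set outside that stretch checks nothing about the labels. Every direction below is therefore relative to arrays labelled Bmal1-/-. The arrays' median intensities were 31.7 to 32.2 in that group and 33.5 to 34.3 in wild type.

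Bmp6 signal was higher on all 3 arrays labelled Bmal1-/-. This ligand, which also acts in the liver as the main inducer of hepcidin, was read by 1 probe set (1450759_at). It gave 180.8, 164.4 and 172.8 on arrays labelled Bmal1-/- (replicates 4, 5 and 6), against 80.4, 66.5 and 64.3 in wild type (replicates 1, 2 and 3). The genotypes were far apart, with a gap of 84.0 between the lowest array of the higher genotype and the highest array of the other. The means were 173 ± 8.20 and 70.4 ± 8.73 (SD, n = 3 each), a 2.45-fold ratio of mean intensities. On the log2(intensity + 16) scale, which understates differences of low signals, the difference was 1.13 (SE 0.11).

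Bmp4 was near the bottom of the scale in both genotypes. Its probe set (1422912_at) gave 0.4, 13.7 and 13.3 on arrays labelled Bmal1-/-, against 16.9, 4.8 and 14.6 in wild type. The genotypes overlapped and 1 array of each read well below its fellows. The mean of 9.13 ± 7.57 on arrays labelled Bmal1-/- and 12.1 ± 6.43 in wild type (SD, n = 3 each) lay below the level at which probe sets were tested, a mean over all arrays equal to an intensity of 17.3. At this signal, no difference in Bmp4 could be measured in either direction.

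Both BMP genes have a perfect E-box, the letters CACGTG that BMAL1 with CLOCK binds, within the 250 bases before their annotated start. The stretches around it are shown because BMAL1 is the factor that the genotype label names. They are from RefSeq, build GRCm38, 5′ to 3′ on the gene's strand, with the E-box in capitals. That of Bmp6 lies at chr13:38345564-38345619 on the plus strand and its E-box begins 127 bases before the start. That of Bmp4 lies at chr14:46390827-46390882 on the minus strand and its E-box begins 188 bases before the start.
Bmp6: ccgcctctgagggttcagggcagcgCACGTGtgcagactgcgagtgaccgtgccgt
Bmp4: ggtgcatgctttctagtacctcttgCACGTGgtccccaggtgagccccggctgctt
Of the 8 genes, 7 have an entry in the promoter table, all but Id1, and 2 of these 7 hold CACGTG. Among all 32851 promoters of the table, 6.02% hold it in the same window. The Bmp6 and Bmp4 windows are rich in G and C, at 68.8% and 63.2% against a median of 52.4% over the table. Most letters of CACGTG are G or C, so the shares are not compared on equal terms. The match is a description of the letters, not of binding. The gene with the E-box and a clear signal, Bmp6, was higher on arrays labelled Bmal1-/-, and the part of its E-box in this was not tested.

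Grem1 and Chrd, which encode secreted BMP antagonists, were lower on all 3 arrays labelled Bmal1-/-. Gremlin 1, a cystine-knot protein of the DAN family, binds BMP2, BMP4 and BMP7. Its probe set (1425357_a_at) gave 10.4, 10.5 and 9.3 on arrays labelled Bmal1-/-, against 61.1, 63.1 and 58.8 in wild type. Within each genotype these values were nearly the same, and their pooled SD on the log2 scale, 0.04, was the lowest of the 10 tested probe sets of the 8 genes. The mean was 10.1 ± 0.666 on arrays labelled Bmal1-/- and 61.0 ± 2.15 in wild type (SD, n = 3 each), a log2 difference of -1.56 (SE 0.14). Its size depended on the pseudocount: it was -2.49 with a pseudocount of 1 and -0.75 with one of 64. Grem1 entered the tests only through its wild-type signal, as its mean on arrays labelled Bmal1-/- lay below the filter.

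Chordin, the product of Chrd, binds BMPs in the extracellular space until tolloid proteases cut it. The Chrd probe set (1417304_at) gave 27.4, 32.7 and 41.0 on arrays labelled Bmal1-/-, against 93.8, 84.4 and 67.3 in wild type. The genotypes did not overlap, but the arrays of a genotype were less alike than for Grem1. The mean was 33.7 ± 6.85 on arrays labelled Bmal1-/- and 81.8 ± 13.4 in wild type (SD, n = 3 each), a log2 difference of -0.98 (SE 0.16). It was -1.26 with a pseudocount of 1 and -0.58 with one of 64.

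**Figure D1:**
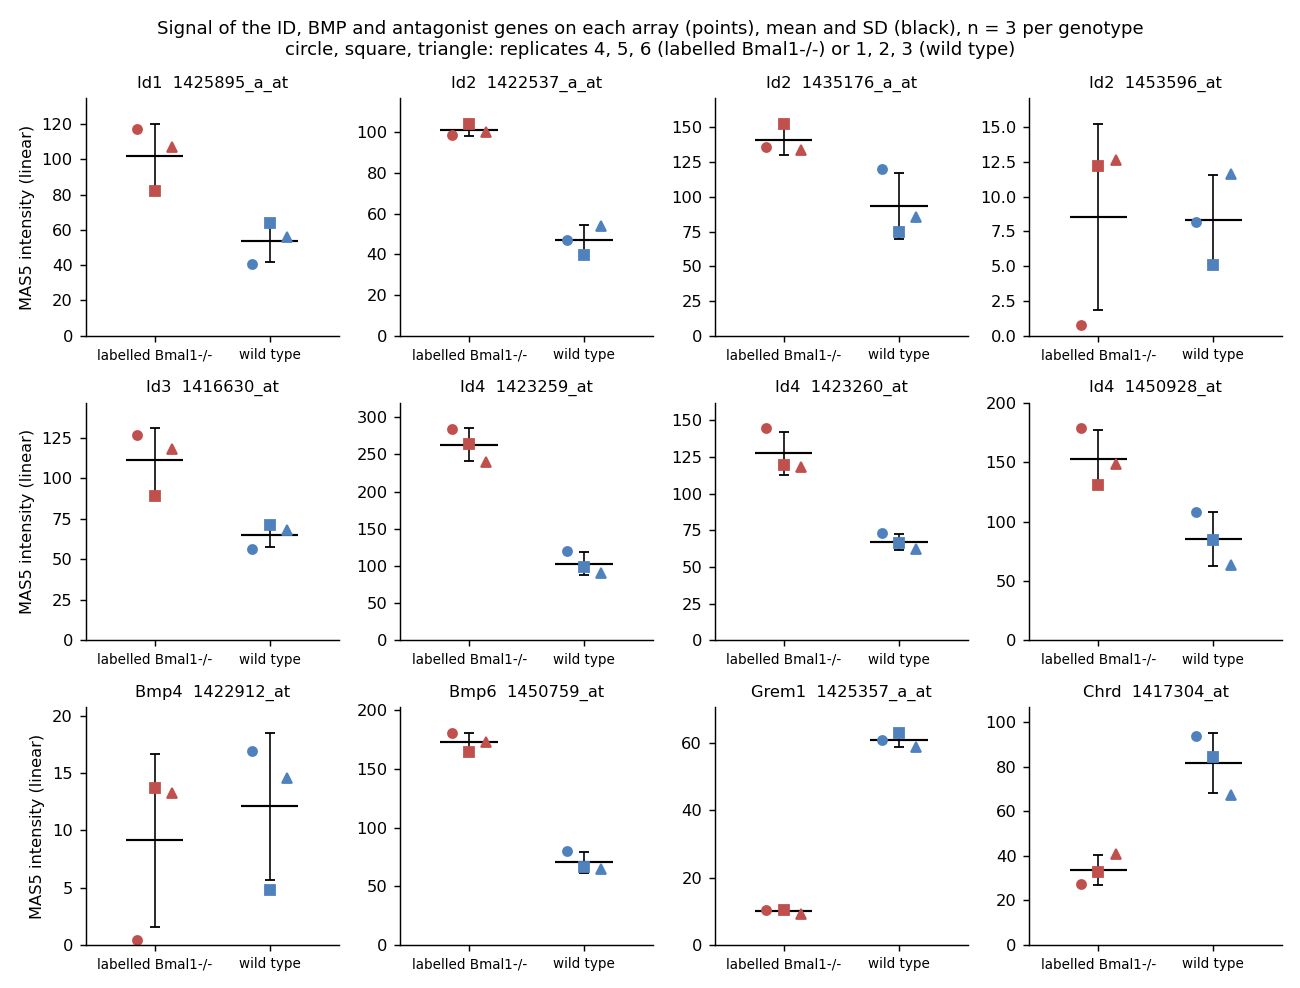
MAS5 intensity (linear, from 0) of the 12 probe sets of the 8 genes on each array, arrays labelled Bmal1-/- left of wild type, with the mean and SD in black (n = 3). The genotypes are apart in 10 panels and overlap in those of Bmp4 and the dim Id2 probe set 1453596_at.

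All 4 ID genes were higher on arrays labelled Bmal1-/-, and the largest log2 difference among their probe sets was that of 1 Id4 probe set. ID4 differs from its relatives in that it can also oppose the other ID proteins, and in the brain it is known for neural progenitors and astrocytes. Its brightest probe set (1423259_at) gave 284.4, 264.4 and 239.7 on arrays labelled Bmal1-/-, against 119.6, 99.1 and 90.2 in wild type. The lowest array labelled Bmal1-/- was 120.1 above the highest wild-type array. The mean was 263 ± 22.4 on arrays labelled Bmal1-/- and 103 ± 15.1 in wild type (SD, n = 3 each), with a log2 difference of 1.23 (SE 0.12).

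The other two Id4 probe sets pointed the same way with smaller differences. Probe set 1423260_at gave 144.7, 119.4 and 118.5 on arrays labelled Bmal1-/-, against 73.2, 66.4 and 62.2 in wild type, a log2 difference of 0.78 (SE 0.12). Probe set 1450928_at gave 178.8, 131.3 and 148.9 on arrays labelled Bmal1-/-, against 108.5, 84.5 and 63.3 in wild type, a log2 difference of 0.75 (SE 0.16). All 3 name the same source sequence in the annotation, so they are readings of 1 transcript and not replicates. Averaged over the 3 probe sets, the Id4 difference was 0.92.

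Id1 and Id3, the ID genes most used as readouts of BMP signalling, varied alike from array to array. Id1 (1425895_a_at) gave 117.3, 82.0 and 107.0 on arrays labelled Bmal1-/-, against 40.8, 63.9 and 56.1 in wild type. Id3 (1416630_at) gave 126.6, 89.1 and 117.8 on arrays labelled Bmal1-/-, against 56.2, 71.2 and 68.2 in wild type. Both put the 6 arrays in the same order, with replicate 5 the lowest of the arrays labelled Bmal1-/- and replicate 2 the highest of wild type.

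The Id1 mean was 102 ± 18.2 on arrays labelled Bmal1-/- and 53.6 ± 11.8 in wild type (SD, n = 3 each), a log2 difference of 0.77 (SE 0.16). For Id3 it was 111 ± 19.6 on arrays labelled Bmal1-/- and 65.2 ± 7.94 in wild type (SD, n = 3 each), a log2 difference of 0.64 (SE 0.14). The gap between the nearest arrays of the genotypes was narrow for both, at 18.1 for Id1 and 17.9 for Id3. With each array left out in turn, the log2 difference was 0.63 to 0.89 for Id1 and 0.55 to 0.77 for Id3.

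Id2, which in other tissues is needed for innate lymphoid and natural killer cells, was read by 3 probe sets that differed in signal. Probe set 1422537_a_at gave 98.4, 104.2 and 100.2 on arrays labelled Bmal1-/-, against 47.2, 39.5 and 54.1 in wild type, a log2 difference of 0.90 (SE 0.13). The brighter 1435176_a_at gave 135.7, 152.7 and 133.6 on arrays labelled Bmal1-/-, against 120.4, 74.7 and 85.8 in wild type, a log2 difference of 0.53 (SE 0.15). Wild-type replicate 1 stood close to the other genotype on the second of these and not on the first. The third, 1453596_at, read 0.8 to 12.6 on arrays labelled Bmal1-/- and 5.1 to 11.6 in wild type and was too dim to test. Unlike Id1 and Id3, both bright Id2 probe sets read highest on replicate 5 of the arrays labelled Bmal1-/-.

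In the window of 250 bases before the start, Id2 and Id4 hold GGCGCC, a GC-rich element that BMP-activated SMADs are known to bind, and so do Grem1 and Chrd. These stretches are shown because ID genes are SMAD targets. They come from RefSeq, build GRCm38, with GGCGCC in capitals, each 5′ to 3′ on its gene's strand. The Id2 stretch is chr12:25096293-25096342 on the minus strand and the Id4 stretch chr13:48260943-48260998 on the plus strand. For Grem1 it is chr2:113758696-113758751 on the minus strand and for Chrd chr16:20732899-20732954 on the plus strand.
Id2: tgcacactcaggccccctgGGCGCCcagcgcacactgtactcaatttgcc
Id4: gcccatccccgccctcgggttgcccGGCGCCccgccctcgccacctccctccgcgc
Grem1: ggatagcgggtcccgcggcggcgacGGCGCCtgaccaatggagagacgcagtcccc
Chrd: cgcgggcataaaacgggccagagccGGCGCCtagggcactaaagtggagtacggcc
GGCGCC stands in 4 of the 7 promoters of these genes and in 9.59% of all promoters in the table. The 7 are rich in G and C, at 62.8% to 78.0% against a median of 52.4% over the table, so a GC-rich word is found more easily in them. It is present in genes that were higher (Id2, Id4) and in genes that were lower (Grem1, Chrd) on arrays labelled Bmal1-/-. The CCAAT box, searched on both strands, occurs 3 times in Id2, 2 times in Id4 and once in Grem1, and in 33.8% of all promoters. The half-site AGGTCA of ROR and REV-ERB receptors, on either strand, was found in Grem1 alone of the 7, and in 14.0% of all promoters. Motifs were chosen with the sequences in view, and none of them overlaps another in the windows printed.

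Of the 12 probe sets, 10 were bright enough to enter the fit over the whole array. In that fit 9 of them passed limma's threshold, an adjusted p under 0.05, with 7 higher and 2 lower on arrays labelled Bmal1-/-. Over all 13576 probe sets tested, 5.54% passed, 2.75% higher and 2.78% lower on those arrays. The tenth was the brighter Id2 probe set, 1435176_a_at. In all 10 the genotypes did not overlap, as in 25.9% of all tested probe sets. Since these genes were chosen for this contrast, the counts support nothing about them. The spread within a genotype is likewise only a description, since a clear genotype difference depends on it. The pooled SD on the log2 scale ran up to 0.27, at the Id4 probe set 1450928_at. Its median was 0.17 over the 10, against 0.15 over all tested probe sets.

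Likeness of the genes over the 6 arrays was measured as the root-mean-square difference between log2 profiles after each probe set's own mean was removed, with 1 probe set per gene. The genotype difference makes up most of each profile, so genes with differences of similar size come out alike, and the values below support no pairing. Between Id1 and Id3, with log2 differences of 0.77 and 0.64, it was 0.09. Between Id4 and Bmp6, with 1.23 and 1.13, it was also 0.09. Grem1 and Chrd were further apart, at 0.34, with 15 genes nearer to Grem1 and 267 nearer to Chrd. The nearest of the 8 genes to Id2 was Id3, at 0.32, and 2829 of 8032 genes were nearer. Outside the 8 genes, Tppp3 was nearest to Bmp6 (0.06) and Id4 (0.10), and Gng3, a G protein gamma subunit gene, to Id1 (0.12) and Id3 (0.10). Fkbp4, a steroid receptor co-chaperone gene, was nearest to Id2 (0.07). Ceacam10 was nearest to Grem1 (0.13) and Usp2 to Chrd (0.10), each with a genotype difference of nearly the same size.

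**Figure D2:**
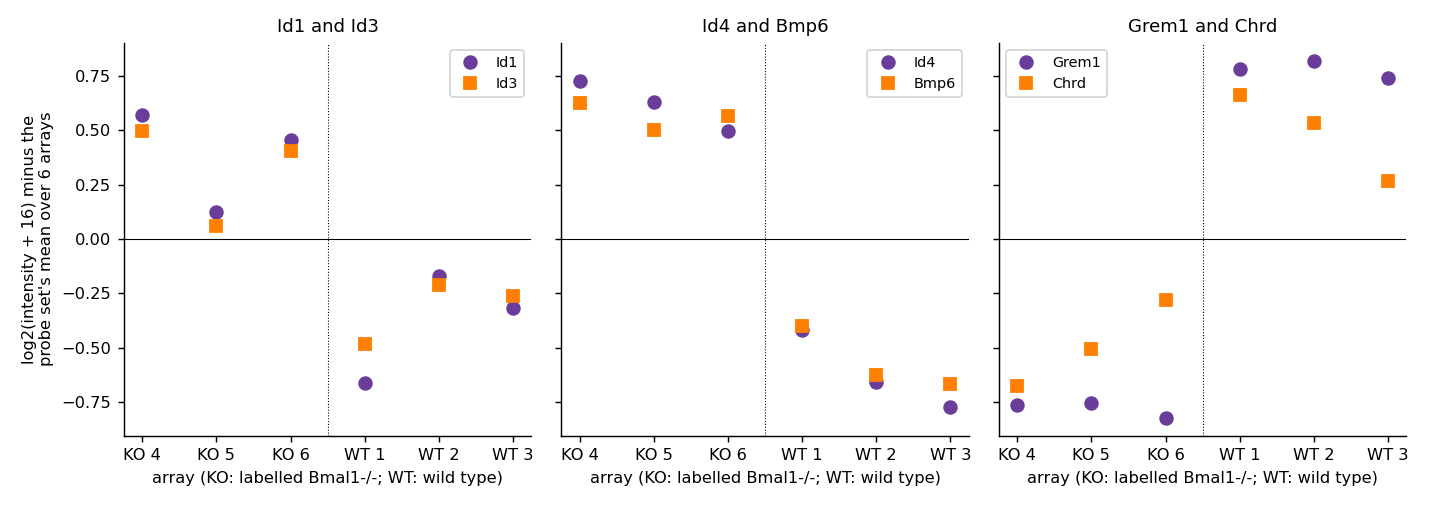
Log2(intensity + 16) of pairs of genes on each array, minus the probe set's mean over the 6 arrays, with arrays labelled Bmal1-/- (KO) left of wild type (WT). Id1 and Id3 dip together on replicate 5 of the arrays labelled Bmal1-/-, Id4 and Bmp6 lie within a narrow band of each other, and Grem1 is flat within each genotype where Chrd is not.

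The rest of the pathway was taken from 7 lists of BMP, SMAD, bHLH and activin genes. Outside the 8 genes these hold 128 genes, of which 106 have a probe set and 52 were bright enough to be tested. Of those 52, 1 fell and 0 rose by limma (adjusted p under 0.05), or 1.92%, against 5.66% of all 8033 genes tested (2.66% lower and 3.0% higher), while 12 had an unadjusted p under 0.05. Over all genes tested, 21.5% had an unadjusted p under 0.05, which is the background for such counts in each list below. The median log2 difference of the 52 was -0.05, against 0.00 over all genes, and the range ran from -0.59 to 0.58.

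Among the other ligands, only Gdf2, which encodes BMP9, was tested, and it did not pass (-0.16, limma adjusted p = 0.637). A further 12 ligand genes, Bmp2, Bmp5 and Bmp7 among them, had mean intensities of 0.767 to 17.4 and were not tested, since the filter is set on the mean of the log2 values.

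None of the 6 other antagonists and modulators passed, and 5 of them were below 0, with a list median of -0.15 and 1 at an unadjusted p under 0.05. Nog, which encodes noggin, gave 7.4, 13.6 and 23.6 on arrays labelled Bmal1-/-, against 23.8, 24.7 and 34.9 in wild type. The genotypes were separated by 0.2 units only, and its log2 difference was -0.53 (SE 0.20, limma adjusted p = 0.155). Fstl1, a follistatin-like glycoprotein gene, had -0.28 (adjusted p = 0.311), and Twsg1, whose product aids chordin in holding BMPs, had 0.25 (adjusted p = 0.368). Fst and Sostdc1 were among the 9 genes of this list too dim to test.

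No receptor or co-receptor passed of the 8 tested, with a list median of 0.01 and 1 at an unadjusted p under 0.05. Neo1, whose product neogenin is a co-receptor for repulsive guidance molecules, came nearest. It gave 173.9, 175.6 and 197.3 on arrays labelled Bmal1-/-, against 136.8, 132.5 and 144.8 in wild type, a log2 difference of 0.36 (SE 0.10, limma adjusted p = 0.0555). It passed under 3 of 16 alternatives, with adjusted p between 0.0283 and 0.188. Bmpr1a, a type I BMP receptor gene, averaged 314 ± 9.02 on arrays labelled Bmal1-/- and 295 ± 14.4 in wild type (SD, n = 3 each), with a log2 difference of 0.08. Acvr1, another type I receptor gene, stood at 0.02. The receptor genes Bmpr1b, Bmpr2 and Acvrl1 were too dim to test, with mean intensities of 4.72 to 14.2.

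The 13 SMAD genes and their regulators likewise held no call, with a median of -0.08 and 3 at an unadjusted p under 0.05. Smad1, which carries the BMP signal, gave 205.7, 225.3 and 230.4 on arrays labelled Bmal1-/-, against 251.2, 261.8 and 317.9 in wild type. The groups did not overlap, and the log2 difference was -0.30 (SE 0.10, limma adjusted p = 0.115). Smad5 had -0.39 (adjusted p = 0.207) and Tob1, an antiproliferative gene whose product restrains SMAD signalling, -0.27 (adjusted p = 0.115).

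Other genes that BMPs are known to induce did not pass either. Of 8 tested, 0 rose and 0 fell by limma, 0 had an unadjusted p under 0.05, and the list median was -0.09. Smad7, an inhibitory SMAD, gave 37.1, 39.8 and 31.8 on arrays labelled Bmal1-/-, against 45.4, 36.1 and 62.9 in wild type, and the groups overlapped. Smad6, the inhibitory SMAD specific to BMP signalling, gave 15.6, 26.9 and 24.7 on arrays labelled Bmal1-/-, against 22.7, 12.4 and 20.7 in wild type, with overlap as well. The decoy receptor gene Bambi had a log2 difference of -0.34 (adjusted p = 0.313), and the transcription factor genes Msx1, Gata2 and Hey1 had -0.15, -0.18 and 0.01. With all its tested probe sets averaged, Gata2 had -0.01. A further 12 genes of this list were too dim to test.

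Of 9 tested bHLH factors outside the ID genes, 1 fell and 0 rose, with 4 at an unadjusted p under 0.05. Tcf21, a bHLH gene of mesenchymal cells, gave 25.7, 19.5 and 20.9 on arrays labelled Bmal1-/-, against 38.3, 36.3 and 49.8 in wild type. The groups did not overlap, and it fell by a log2 difference of -0.59 (SE 0.15, limma adjusted p = 0.0462). The call was lost under 8 of 15 alternatives, namely equal array medians, quantile normalization, testing without the filter and the omission of any array but wild-type replicate 2, with adjusted p from 0.0321 to 0.156 over all 15. The E protein genes, whose products ID proteins hold, did not pass: Tcf12 had -0.25 (adjusted p = 0.0950), Tcf3 had 0.34 (adjusted p = 0.186) and Tcf4 had averages of 256 ± 31.2 on arrays labelled Bmal1-/- and 265 ± 39.9 in wild type (SD, n = 3 each). Neurod1, a factor of corticotrophs and other neuroendocrine cells, had 0.58 (adjusted p = 0.0890) with overlapping groups. It passed only without replicate 6 of the arrays labelled Bmal1-/- (0.77, adjusted p = 0.0431) or with all its tested probe sets averaged (0.67, adjusted p = 0.0335).

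The activin, inhibin and TGF-beta genes, the neighbouring branch that drives FSH production in gonadotrophs, held no call among 11 tested, with a median of -0.06 and 3 at an unadjusted p under 0.05. Acvr1b, the type I activin receptor gene, had 0.28 (limma adjusted p = 0.157) and Tgfb3 had -0.38 (adjusted p = 0.162). The inhibin subunit genes Inhbb and Inha had 0.30 and -0.25 (adjusted p = 0.208 and 0.261).

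**Figure D3:**
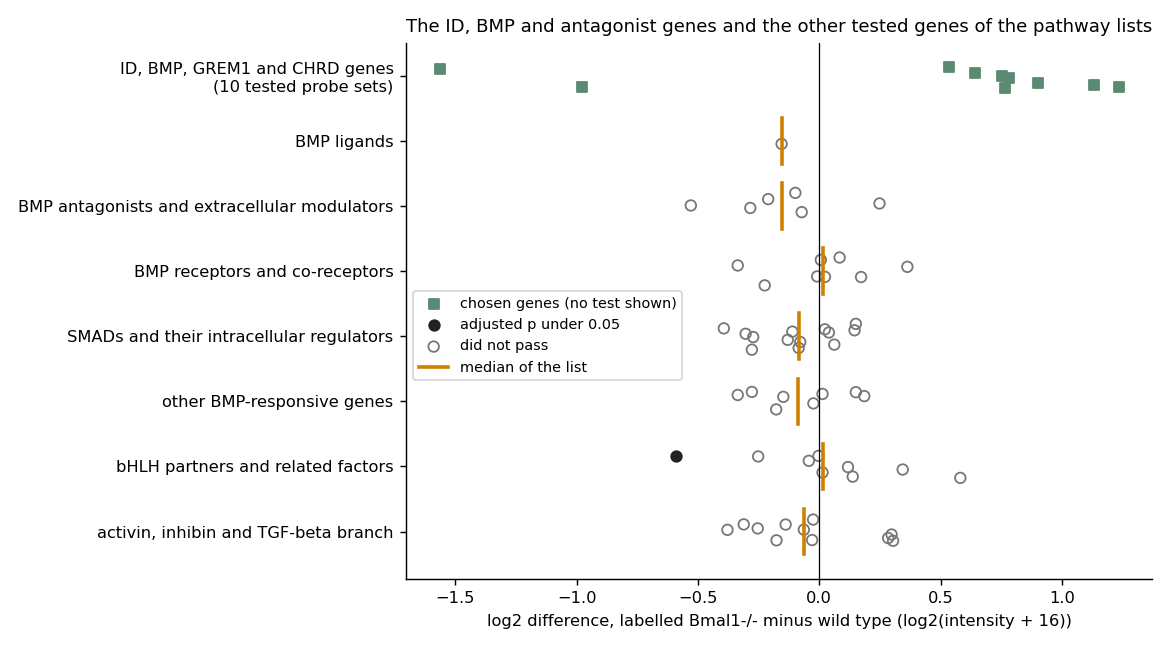
Log2 difference between arrays labelled Bmal1-/- and wild type for the 10 tested probe sets of the 8 genes (top) and the other tested genes of 7 pathway lists, with black points for a limma adjusted p under 0.05 and an orange bar at each list's median. The 8 genes, chosen for their differences, are drawn as green squares with no test, and of the others only Tcf21 at -0.59 is black.

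Several cell types of the gland make the genes described here, and in whole glands fewer cells of a type and less RNA per cell cannot be told apart. Fibroblasts are a known source of Grem1. Their marker list had 9 of 9 genes on the array, with a summed intensity of 1420 to 1457 on arrays labelled Bmal1-/- and 1540 to 1601 in wild type. Of its 8 tested genes Dcn, decorin, fell (-0.80, SE 0.09, limma adjusted p = 0.000312), Col1a2 rose (0.30, SE 0.07, adjusted p = 0.0399, a call lost under 8 of 16 alternatives, up to 0.388) and the other 6 did not pass. Of all 8, 6 were below 0 and 4 had an unadjusted limma p under 0.05, with a list median of -0.19. Dcn fell by more than the sum did, from 479 ± 21.3 in wild type to 269 ± 23.0 on arrays labelled Bmal1-/- (SD, n = 3 each). Without Dcn the list summed higher on arrays labelled Bmal1-/-, through Col1a2, at 804 ± 47.7 there and 651 ± 23.6 in wild type. The part of fibroblast content in the Grem1 and Tcf21 differences was not tested.

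Endothelial cells are rich in ID gene transcripts. The sum of all 12 endothelial markers was 861 to 984 on arrays labelled Bmal1-/- and 773 to 883 in wild type, with overlap. Among them 1 rose, the fenestral diaphragm gene Plvap (0.40, SE 0.09, limma adjusted p = 0.0287, lost under 6 of 16 alternatives, up to 0.103), and 11 did not pass. The list median was 0.04. The part of endothelial content in the ID gene differences was not tested.

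In the pericyte and smooth muscle list, 9 of 9 markers were on the array and the sum was 615 to 655 on arrays labelled Bmal1-/- and 893 to 1008 in wild type. Most of that gap was Rgs5, a G protein regulator gene, at 392 ± 14.4 on arrays labelled Bmal1-/- and 684 ± 58.8 in wild type (SD, n = 3 each). It fell by a log2 difference of -0.77 (SE 0.08, limma adjusted p = 0.000244), while the 4 other tested markers, Pdgfrb among them, did not pass.

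Glial and stem cells of the gland also express ID genes. The folliculostellate and stem cell sum, over 11 of 12 markers, was 1750 to 1878 on arrays labelled Bmal1-/- and 1514 to 1851 in wild type, with overlap. Aldh1a2, a retinoic acid synthesis gene, rose there (0.58, SE 0.10, limma adjusted p = 0.00836), while Anxa1, an annexin gene of folliculostellate cells, had -0.58 (adjusted p = 0.0899, with no overlap), Cdh1 had -0.25, Sox2, the stem cell factor, had 0.05, and S100b and Gfap were too dim to test. The posterior lobe list, 7 of 8 markers, summed to 157 to 178 on arrays labelled Bmal1-/- and 115 to 116 in wild type. Its only tested gene was Mbp, a myelin gene, which rose (0.52, SE 0.11, limma adjusted p = 0.0210, lost without wild-type replicate 3 or replicate 4 or 5 of the arrays labelled Bmal1-/-, up to 0.0838). The defining pituicyte genes Rax and Nkx2-1 were among its 6 untested genes, whose mean intensities reached 5.32 at most. The part of lobe or glial content in the Id4 and Bmp6 differences was not tested.

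Macrophage markers, all 10 on the array, summed to 467 to 526 on arrays labelled Bmal1-/- and 618 to 687 in wild type. C1qa fell (-0.48, SE 0.11, limma adjusted p = 0.0280, lost without any 1 array and with no filter on low values, up to 0.0898), and the other 8 tested genes did not pass, all below 0. Of the 10 anterior lobe hormone cell markers, 3 fell, against 2.66% of all genes, and none of the others passed. Ghrhr kept its call under all 16 alternatives, while Cga lost it under 6 and Gh under 7. Quantile normalization was among these, and it makes the brightest values alike on all arrays, so it can hide a difference there. Under the others the limma adjusted p reached 0.139 for Cga and 0.169 for Gh. The sum of the 10 markers was 55819 to 58641 on arrays labelled Bmal1-/- and 61905 to 70326 in wild type. The intermediate lobe sum, dominated by Pomc, was 8956 to 10076 on arrays labelled Bmal1-/- and 10143 to 11881 in wild type, with 0 of 3 tested genes past the limma threshold and 1 at an unadjusted p under 0.05. Red blood cell markers, 2 of 7 on the array, summed to 59.8 to 108 on arrays labelled Bmal1-/- and 68.1 to 117 in wild type. No marker of any list was at 0 on every array.

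**Figure D4:**
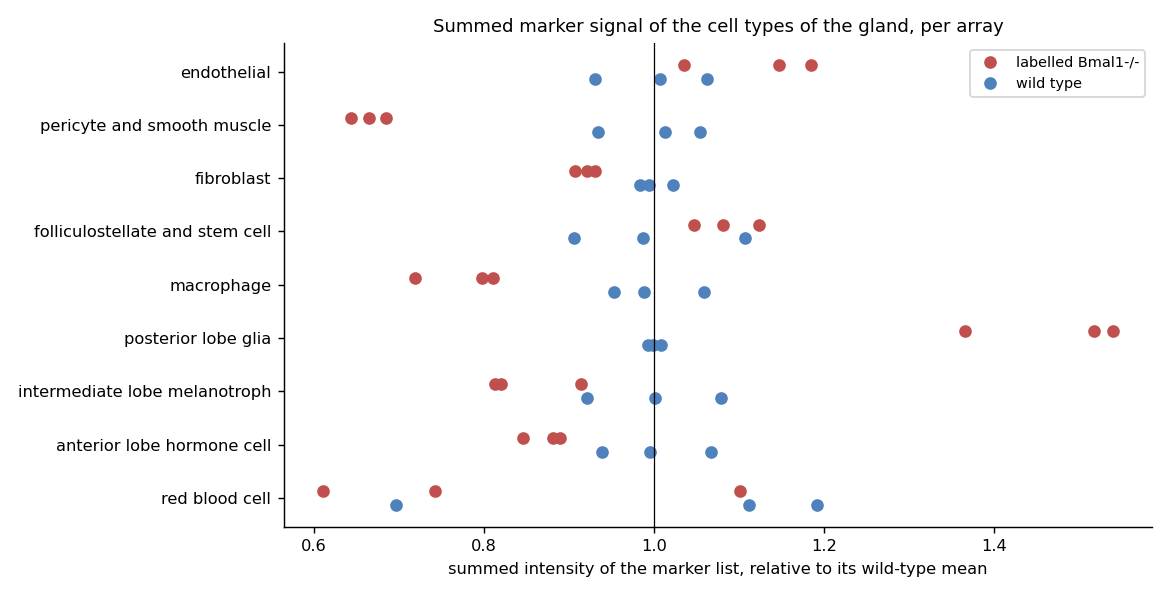
Summed intensity of each cell type's marker list on each array, relative to its wild-type mean (1), with arrays labelled Bmal1-/- drawn above wild type in each row. The pericyte, fibroblast, macrophage and hormone cell sums lie lower and the posterior lobe sum higher on arrays labelled Bmal1-/-, while the endothelial, folliculostellate and red blood cell sums overlap. Single genes weigh heavily in these sums, and most of the pericyte gap is Rgs5. Without Dcn the fibroblast sum lies higher on arrays labelled Bmal1-/-, and without Mbp the posterior lobe sums overlap.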

How the data were processed

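Per the labels' protocols, each array received biotinylated cRNA made from 1 ug of total RNA. The deposited table holds 1 linear intensity per probe set and array, computed with MAS5 per the submitters' processing notes, with no version, target or detection call in the sources used. MAS5 subtracts a mismatch background, so low values are noisy. The trimmed mean was 100.0 on all arrays. The 64 control probe sets were left out.

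Values were taken as log2(intensity + 16). Probe sets in the top 60% by mean level were tested by limma 3.58.1 under R 4.3.3 (two-sided, with an intensity trend), adjusted by Benjamini-Hochberg over all 13576. Per gene, the brightest tested probe set was used. The number of arrays limits the precision, and the procedure was tested on simulated data.

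The genes and lists were chosen with earlier results of these data known. Named genes are the 8 genes, those past the threshold in each list (up to 6, markers 4), or the 2 with the smallest p in a pathway list without any, and the 3 most alike in profile. Not all are printed, and other list genes named here were picked with their values known. Tried as alternatives were equal array medians, quantile normalization, pseudocounts of 1 and 64, the top 40% or no filter, eBayes robust or trend-free, array weights, averaging a gene's probe sets, and omission of each array.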

Additional observations from a re-analysis of the deposited data

How the results depend on the processing

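The log2 differences of the 8 genes kept their sign under every alternative in which their probe set was tested. Where the genotypes do not overlap, neither another pseudocount nor the omission of an array can reverse a sign. The filter and the eBayes settings leave a log2 difference as it is, so those values are the same by construction. Of 152 values, these included, 136 moved by less than 1 SD between replicates and 16 by more, mostly with another pseudocount. Over all probe sets the count was 330 without the filter and 407 with a variance model that has no intensity trend, against 752, and 314 to 950 with 1 array left out. It was lowest without wild-type replicate 3 and highest without wild-type replicate 2. The count among the probe sets of the 8 genes, 9 as reported, was 6 without the filter and 7 with the top 40% of probe sets. With 1 array left out it was 6 to 9, and with equal array medians it was 10. The number of other pathway genes past limma's threshold, 1 as reported, was 0 after quantile normalization (11 of 52 at an unadjusted p under 0.05), 0 with no filter (16 of 106) and 3 with probe sets of a gene averaged (Tcf21, Neurod1 and Neo1). It was 0 to 1 with 1 array left out. The gene counted was Neo1 and not Tcf21 with equal array medians and with the top 40% of probe sets, where Tcf21 was not tested, and Neurod1 without replicate 6 of the arrays labelled Bmal1-/-. The causes were not tested. No paired analysis was possible because the genotypes share no replicate number. Dim probe sets, such as those of Bmp4 and most other BMP ligands, set the limit of what could be measured.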
